A study of Mus musculus with 7 samples.

Results

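The ephrins, Eph receptors, semaphorins, plexins and neuropilins are cell-surface and secreted guidance molecules, and their mRNA was measured in mouse C2C12 muscle cells that had received exosomes. The members were chosen by gene name, as all array probes whose name begins with Efna, Efnb, Epha, Ephb, Sema or Plxn or is Nrp1 or Nrp2. The array carries 70 such probes for 53 genes, out of 39429 probes in all. Of these, 51 probes for 44 genes were well above background on at least 3 arrays of 1 group and were tested, among 21589 probes tested in all. Ephrins are membrane-bound ligands of the Eph receptor tyrosine kinases, and both partners can signal into their own cell when neighbouring cells touch. Semaphorins are secreted or membrane-bound ligands of plexins, and the secreted class 3 semaphorins bind through neuropilins, which serve as co-receptors. These families are known for repelling or attracting growing axons, and in muscle they take part in myoblast migration, nerve contact and vessel growth.

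C2C12 is a mouse myoblast line whose cells fuse into myotubes after serum is lowered. Other C2C12 cultures served as donors, treated with palmitate at 0.5 mmol/l coupled to BSA or with BSA alone, and according to the methods their exosomes were collected 9 h after the treatment had been removed. Recipient cells were given these exosomes for 24 h, either EXO-Post BSA (4 arrays) or EXO-Post Palm (3 arrays), so both groups received exosomes and neither is a culture without them. The labels call the recipient cells myoblasts while the paper calls them myotubes, all are 1 cell line, and the arrays are labelled as biological replicates with no word on separate cultures, so p-values measure the spread between these arrays. Each value below is log2 of the processed Cy3 signal minus the 75th percentile of its array, so 0 is that percentile, and values of different probes do not rank the genes. A difference is always EXO-Post Palm minus EXO-Post BSA on the log2 scale, the brightest passing probe stands for a gene with more than 1, and values are listed in order of replicate number.

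Between 48.5 and 70.3% of probes were well above background on an array, and with 7 arrays their number limits how precisely a difference is known. Of the 4 slides used, both groups shared slide 1 (controls 1 and 2 with EXO-Post Palm replicate 1) and slide 3 (control 4 with EXO-Post Palm replicate 3). Control 3 was alone on slide 2 and EXO-Post Palm replicate 2 alone on slide 4. A fit with slide as a fixed block thus takes its difference from slides 1 and 3 only. Of 11 muscle marker genes, 10 were well above background on all arrays and Myf5 on none. Of these 10, 3 were higher with EXO-Post Palm, none passed the adjusted threshold, and their median log2 difference was -0.14. The summed muscle level was 482 to 653 times the 75th percentile with EXO-Post BSA and 420 to 509 times with EXO-Post Palm, which overlapped. Among 10 genes of the G2 and M phases of the cell cycle, 9 passed the filter, all 9 were higher with EXO-Post Palm and 7 of them past the adjusted threshold, with a summed level of 6.81 to 7.82 times the 75th percentile on EXO-Post BSA arrays and 31.0 to 63.7 times on EXO-Post Palm arrays. The summed level of neuron markers (4 of the 5 on the array passed, Syt1 not above background on any array) was 7.40 to 14.5 with EXO-Post BSA and 3.50 to 4.78 with EXO-Post Palm, with 1 of the 4 higher and a median log2 difference of -0.83. For macrophage markers (4 of 6 passed, Ptprc and Cd68 not) the summed level was 7.88 to 18.1 and 5.99 to 7.65, but 3 of the 4 were higher with EXO-Post Palm and their median log2 difference was 0.51, so the sum and the median ran in opposite directions. None of the neuron or macrophage markers passed the adjusted threshold. Of 6 endothelial markers, Cdh5, Tek, Emcn and Esam were above background on no array, and the summed levels of the Schwann cell, adipocyte and fibroblast markers overlapped between the groups. In bulk RNA, fewer cells of a type and less RNA per cell cannot be told apart, and the part of these shifts in the guidance genes was not tested.

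Epha1 was the only guidance gene past the threshold, and it rose with EXO-Post Palm. Of the 51 probes tested, 1 had an adjusted p under 0.05, against 0.533% of all tested probes (0.463% higher and 0.0695% lower). An unadjusted p under 0.05 was given by 16 of 51 probes (31.4%), 6 of them higher and 10 lower with EXO-Post Palm, against 10.0% of all tested probes (4.85% higher and 5.19% lower). The 16 include probes that passed the filter only through the group where they were high: those of Sema5b and Plxna4 and the second probes of Ephb6 and Sema3c. With only probes well above background on every array, the count was 15 of 42 (35.7%), 8 of them lower, against 11.6% of all probes. The groups did not overlap for 16 probes, 8 higher and 8 lower, against 11.3% of all tested probes (5.40% higher and 5.87% lower), and 30 probes were lower, a share of 58.8% against 52.7%. The second probes of Ephb6 and Sema3c are also among the probes without overlap. Under 18 alternative settings that kept a filter on dim probes, the share of members with an unadjusted p under 0.05 was 20.8 to 41.2%, while that of all probes was 6.83 to 11.8%. Counted by gene, 14 of 44 had an unadjusted p under 0.05, 5 higher and 9 lower (Sema5b and Plxna4 among the 9). Of all 17477 genes tested, with 1 probe each, 822 were higher and 955 lower with such a p. Among the 14 guidance genes, the 13 other than Epha1 did not pass the adjustment over all probes. Within both shared slides the direction was that of all arrays for 31 of the 44 genes and for 13 of these 14, which were chosen by p on the same arrays. The arrays of the shared slides also enter the difference over all arrays, so agreement was partly built in for every gene. The share over all tested genes was not counted, so neither count can be set against it.

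**Figure D1:**
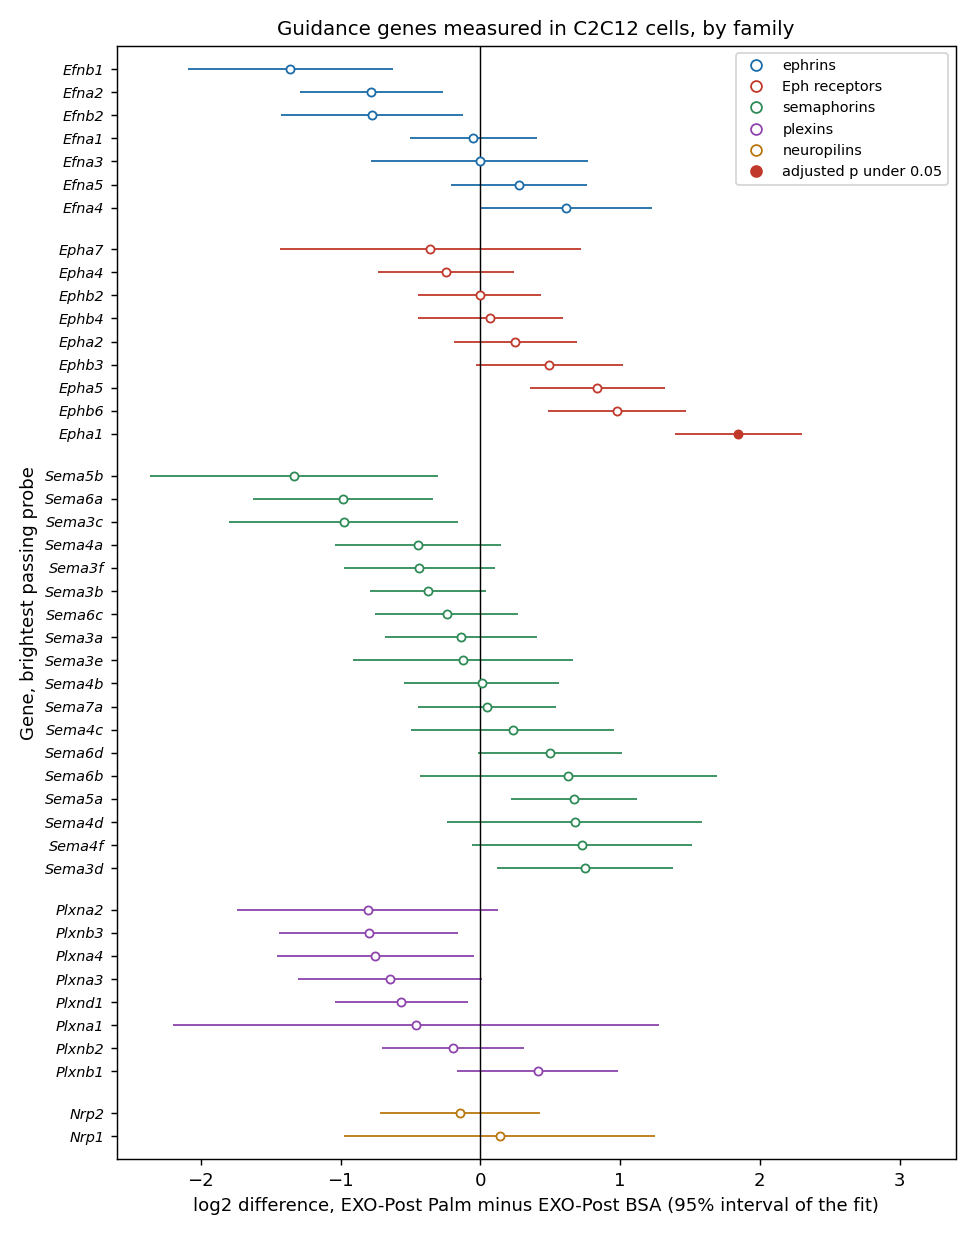
The log2 difference of EXO-Post Palm minus EXO-Post BSA is plotted for each of the 44 guidance genes that passed the filter, with its 95% interval, grouped by family. Epha1, the filled point at 1.85, is the only gene past the adjusted threshold, and 7 of the 8 plexins lie below 0.

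By family, the median log2 difference was -0.05 over 7 ephrins, 0.25 over 9 Eph receptors, -0.06 over 18 semaphorins, -0.61 over 8 plexins and -0.00 over both neuropilins. Over all 44 genes the median was -0.09, and over all 17477 genes tested, with 1 probe each, it was -0.03. Lower values were found for 5 of 7 ephrins, 3 of 9 Eph receptors, 9 of 18 semaphorins, 7 of 8 plexins and 1 of 2 neuropilins. These medians describe the families and were not tested.

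The values of the Eph receptors and of the B ephrins rest on 60-base probes, of which the first 30 bases are shown for the 3 genes with the largest differences among ephrins and Eph receptors, Epha1, Ephb6 and Efnb1, and for Efnb2, the other B ephrin that passed. Positions are on mm9 and cover the printed bases.
Epha1, chr6:42308613-42308642, minus strand: tcaatcagaactctgcctttgaaccaagga
Ephb6, brightest probe, chr6:41570442-41570471, plus strand: cacccccaaatcctgctcttccaacagcct
Ephb6, second probe, chr6:41564657-41564686, plus strand: ttagtggcagctgtgggcacctgtgtagct
Efnb1, chrX:96343505-96343534, plus strand: ttttggaccctcatgagacaatgctgttcc
Efnb2, chr8:8618207-8618236, minus strand: gtcatcggttggctacgttttggttctatg
The pair of Ephb6 probes lies at different places of 1 gene.

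Among the receptors, Epha1 encodes an A-class Eph receptor tyrosine kinase. Its log2 values were -0.99, -1.20, -1.02 and -0.96 with EXO-Post BSA and 0.80, 0.58 and 1.02 with EXO-Post Palm. All 3 EXO-Post Palm arrays were high and all 4 EXO-Post BSA arrays were low, with no overlap and little spread within either group (SD 0.109, n = 4, and 0.220, n = 3). The log2 difference was 1.85 with an SE of 0.20, a 3.60-fold rise (adjusted p = 0.0108, limma, and p = 0.0286 by a two-sided exact permutation test, the smallest that 7 arrays allow). Epha1 ranked 16 by p among all tested probes. Within slide 1 the log2 difference was 1.90, within slide 3 it was 1.99, and a fit that blocked on slide gave 1.94 (adjusted p = 0.0353, limma). That fit takes its difference from slides 1 and 3 alone. The call was lost, with a log2 difference of 1.74 to 1.87, when EXO-Post Palm replicate 1 (adjusted p = 0.0622) or 3 (adjusted p = 0.0598) was left out, with all dim probes kept (adjusted p = 0.0881), with replicate number as a block (adjusted p = 0.110) and under the methods' t-test (adjusted p = 0.149), all over all probes.

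**Figure D2:**
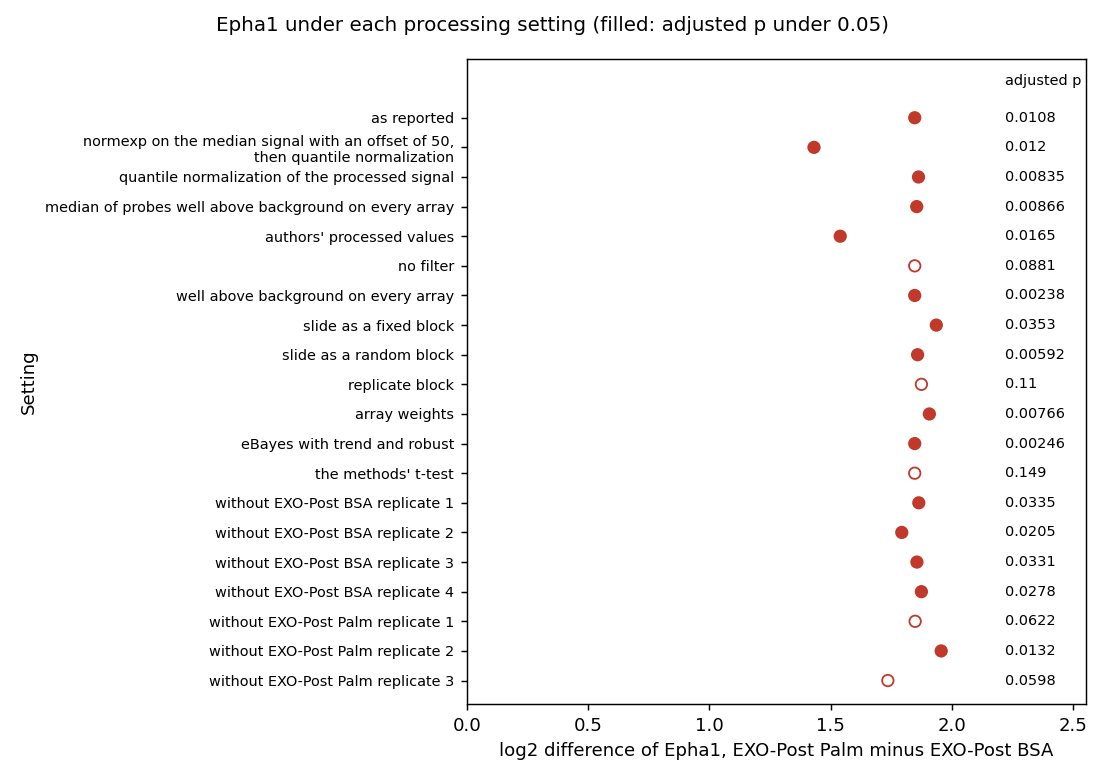
The log2 difference of Epha1 (x axis) is plotted as reported and under each of 19 alternative settings (y axis), with its adjusted p at the right. All points lie between 1.43 and 1.96, and 14 of the 19 alternatives have an adjusted p under 0.05. The methods' t-test is the paper's general test for comparing means, while the paper names limma for its arrays.

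Ephb6, a receptor of the B class whose kinase domain is inactive, lies 738081 bases from the Epha1 probe on chromosome 6. Its brightest probe gave log2 values of 3.04, 2.99, 3.21 and 2.70 with EXO-Post BSA and 3.78, 3.88 and 4.21 with EXO-Post Palm. Every EXO-Post Palm array lay above every EXO-Post BSA array. The log2 difference was 0.98 with an SE of 0.217, which did not pass the adjustment (adjusted p = 0.133, limma), and it was 0.77 within slide 1 and 1.52 within slide 3. The second probe, well above background on 2 arrays of EXO-Post BSA and 3 of EXO-Post Palm, passed the filter through the group where it was high, so its log2 difference of 1.03 (SE 0.264, adjusted p = 0.198) adds no separate support. Of 21 probes placed between the Ephb6 and Epha1 probes, 7 passed the filter, and their log2 differences were -0.76 to 0.70 with 0 past the adjusted threshold and 1 with an unadjusted p under 0.05, that of 1700034O15Rik. The probe of Zyx, which encodes the focal adhesion protein zyxin and is read from the opposite strand, ends 189 bases from the Epha1 probe and had a log2 difference of -0.23 (SE 0.290, adjusted p = 0.826). This stretch was looked at after the values of both receptors had been seen.

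Epha5, another A-class receptor, had log2 values of 2.45, 2.77, 2.40 and 2.86 with EXO-Post BSA and 3.28, 3.47 and 3.62 with EXO-Post Palm. The groups did not overlap, and the log2 difference was 0.84 (SE 0.213, adjusted p = 0.197). A second Epha5 probe was well above background on no array. Epha7, the Eph receptor with the lowest difference, varied widely among the controls (SD 0.947), with log2 values of -3.00, -1.93, -4.19 and -3.45 against -3.20, -3.49 and -3.80. Its groups overlapped and its log2 difference of -0.36 (SE 0.473, adjusted p = 0.838) turned to 0.048 without EXO-Post BSA replicate 2.

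Of the other receptors that passed, Ephb3 had a log2 difference of 0.49 (SE 0.232), Epha2 of 0.25 (SE 0.193) and Epha4 of -0.25 (SE 0.213), all with overlapping groups. For Ephb2 the log2 difference was -0.01, with a 95% interval of -0.44 to 0.43. The probes of Ephb4 differed in direction, at 0.07 for the brighter and -0.45 for the dimmer. Epha3, Epha6 and Ephb1 were well above background on no array, and Epha8 and Epha10 on 1 EXO-Post BSA array each.

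Among the ligands, both B ephrins that passed had negative differences, and neither passed the adjustment. Efnb1 encodes ephrin-B1, a transmembrane ligand of B-class receptors. Its log2 values were 2.50, 2.73, 2.09 and 2.71 with EXO-Post BSA and 1.15, 1.79 and 0.50 with EXO-Post Palm. All EXO-Post Palm arrays were below all EXO-Post BSA arrays, with EXO-Post Palm replicate 2 nearest to the controls and replicate 3 farthest. The log2 difference was -1.36 with an SE of 0.323, a 2.56-fold lower mean (adjusted p = 0.162, limma, and p = 0.0286 by a two-sided exact permutation test). That permutation p is the smallest that 7 arrays allow, and other guidance genes had it too, among them Efna2, Epha5, Sema6a and Plxnd1. The Efnb1 difference was -1.46 within slide 1 and -2.21 within slide 3. A fit that blocked on slide gave -1.78 (adjusted p = 0.0638, limma). EXO-Post Palm replicate 2 and EXO-Post BSA replicate 3, each alone on a slide, do not enter that difference. Over the 19 alternatives its adjusted p was 0.0506 to 0.583, and the direction held in each.

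Efnb2 encodes ephrin-B2, known as a marker of arterial endothelium and expressed by other cells too. Its log2 values were 1.46, 1.02, 1.42 and 1.37 with EXO-Post BSA and 0.26, 1.20 and 0.18 with EXO-Post Palm. EXO-Post Palm replicate 2 lay within the controls while the other 2 lay below all of them, and the difference of the means was -0.77 on the log2 scale (SE 0.286, adjusted p = 0.421). Efnb3 did not pass the filter, being well above background on 1 EXO-Post Palm array.

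The A ephrins are held to the membrane by a lipid anchor, and their differences ran both ways. Efna2 had log2 values of -1.68, -2.35, -2.19 and -1.85 with EXO-Post BSA and -2.78, -2.75 and -2.87 with EXO-Post Palm. The groups did not overlap, and the 3 EXO-Post Palm arrays were close together (SD 0.067). This gave a log2 difference of -0.78 (SE 0.225, adjusted p = 0.263). Efna4 had log2 values of -1.92, -1.05, -0.95 and -1.42 against -0.73, -0.55 and -0.88, which did not overlap, and a log2 difference of 0.61 (SE 0.271, adjusted p = 0.503). Efna1 and Efna3, placed on chromosome 3 like Efna4, had log2 differences of -0.05 (SE 0.20) and -0.00 (SE 0.342), and Efna5 of 0.28 (SE 0.214), all 3 with overlapping groups.

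**Figure D3:**
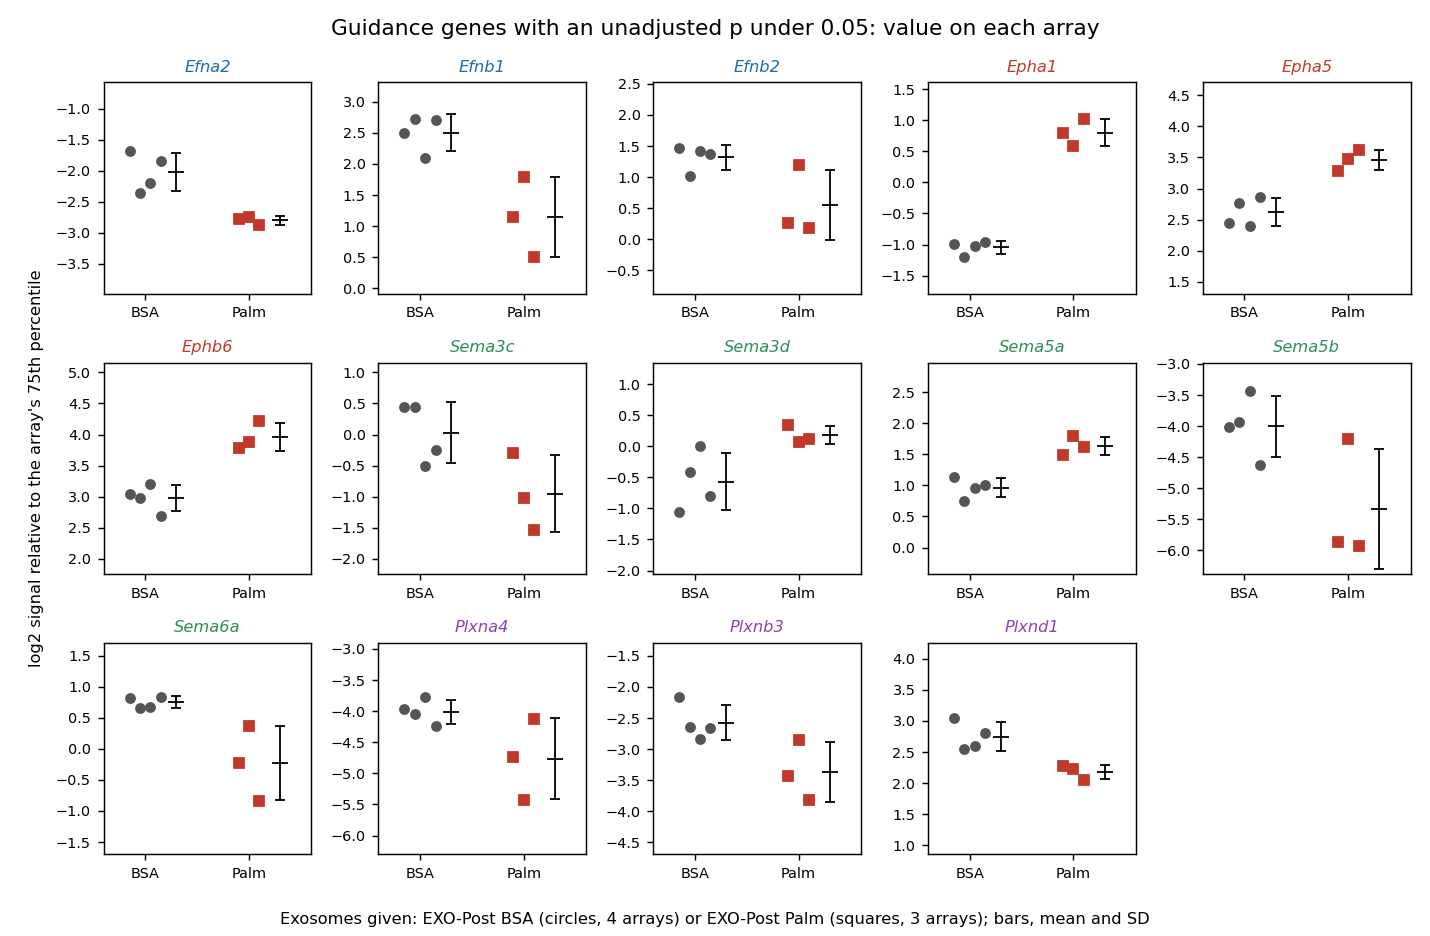
The log2 value on each array is plotted for the 14 guidance genes with an unadjusted p under 0.05, with the mean and SD of each group beside the points and the same axis length in every panel. Epha1 shows the widest gap between its groups, from -0.96 to 0.58, and for Efnb2 EXO-Post Palm replicate 2 lies among the EXO-Post BSA arrays.

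The semaphorins were split, with 9 genes higher and 9 lower and none past the adjusted threshold. Of the secreted class 3, Sema3c, a ligand that acts through neuropilins and plexins, had log2 values of 0.44, 0.44, -0.51 and -0.25 with EXO-Post BSA and -0.30, -1.02 and -1.53 with EXO-Post Palm. EXO-Post Palm replicate 1 lay within the controls, and the log2 difference was -0.98 (SE 0.361, adjusted p = 0.419). A second, dimmer Sema3c probe, well above background on 4 arrays of EXO-Post BSA and 2 of EXO-Post Palm, passed the filter through the group where it was high, so its log2 difference of -0.91 (SE 0.275, adjusted p = 0.296) adds no separate support.

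Sema3d, a secreted relative of Sema3c, differed in the other direction. Its log2 values were -1.06, -0.42, -0.00 and -0.80 with EXO-Post BSA and 0.34, 0.07 and 0.12 with EXO-Post Palm, and the groups were apart by a narrow gap above EXO-Post BSA replicate 3. Sema3d had a log2 difference of 0.75 (SE 0.277, adjusted p = 0.420). Sema3b was lower on all EXO-Post Palm arrays, with a log2 difference of -0.37 (SE 0.183, adjusted p = 0.549), and Sema3f had -0.44 (SE 0.236) with overlapping groups. Sema3e had a log2 difference of -0.12 (SE 0.347), and the probes of Sema3a, the classical repellent of axons, differed in direction at -0.14 and 0.14. Sema3a, Sema3c, Sema3d and Sema3e all lie on chromosome 5. Sema3g did not pass, with neither of its probes above background on more than 2 arrays of a group.

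Class 5 semaphorins are membrane proteins that carry thrombospondin repeats. Sema5a had log2 values of 1.13, 0.76, 0.96 and 1.01 with EXO-Post BSA and 1.49, 1.79 and 1.62 with EXO-Post Palm. The groups did not overlap, and the log2 difference was 0.67 (SE 0.197, adjusted p = 0.275). Its relative Sema5b had log2 values of -4.02, -3.93, -3.43 and -4.62 against -5.86, -4.21 and -5.93, and it was well above background on 3 EXO-Post BSA arrays and no EXO-Post Palm array. Set against the lowest signal well above background on each EXO-Post Palm array, or its own signal there if higher, the Sema5b mean was at least 1.85-fold lower with EXO-Post Palm on the values reported (log2 difference -1.33, adjusted p = 0.372). Sema5b passed the filter through the group where it was high, and the log2 difference was -0.38 after normexp background correction and -0.76 with the authors' processed values, so its size changed with the scaling.

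Class 6 and class 7 semaphorins are membrane-bound. Sema6a, a transmembrane ligand of A-class plexins, had log2 values of 0.82, 0.66, 0.67 and 0.84 with EXO-Post BSA and -0.23, 0.36 and -0.83 with EXO-Post Palm. The controls were close together (SD 0.094) and lay above all EXO-Post Palm arrays, which were spread (SD 0.597). Sema6a thus had a log2 difference of -0.98 (SE 0.284, adjusted p = 0.266). Sema6d had a log2 difference of 0.50 (SE 0.226, adjusted p = 0.512) with groups apart for the brighter probe and of -1.14 (SE 0.734) for the dimmer probe, which passed through 3 EXO-Post BSA arrays alone. Sema6b passed through the EXO-Post Palm arrays alone (0.63, SE 0.466), Sema6c had a log2 difference of -0.24 (SE 0.224), and Sema7a, anchored by a lipid, had 0.05, with a 95% interval of -0.44 to 0.54.

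Of the class 4 semaphorins, which are membrane-bound ligands of B-class plexins among others, 4 were higher and 1 lower, all with overlapping groups. Sema4f had a log2 difference of 0.73 (SE 0.347), Sema4d, the ligand of plexin-B1, of 0.67 (SE 0.400), and Sema4c of 0.23 (SE 0.32). Sema4b was at 0.01 (SE 0.243) and Sema4a at -0.45 (SE 0.260). Sema4g did not pass the filter.

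The plexins, which are the signalling receptors of semaphorins, were lower for 7 of 8 genes that passed, and none passed the adjusted threshold. Plxna4, counted among the 7, passed the filter only through the EXO-Post BSA arrays, where it was high. The median of the 8 log2 differences was -0.61, and taken array by array against the EXO-Post BSA mean it was -0.60, -0.10 and -0.97 for the 3 EXO-Post Palm arrays in order. EXO-Post Palm replicate 3 was thus farthest from the controls and replicate 2 nearest. Over the alternatives the median was -0.73 to -0.32, the value nearest to 0 being the one without EXO-Post Palm replicate 3.

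All 4 A-class plexins, the partners of neuropilins and of class 6 semaphorins, had negative log2 differences, with a median of -0.70. Plxna2 had log2 values of 1.25, 0.89, 0.78 and 1.52 with EXO-Post BSA and 0.30, 1.22 and -0.61 with EXO-Post Palm. EXO-Post Palm replicate 2 lay among the controls and the other 2 below them, and the log2 difference was -0.81 (SE 0.410, adjusted p = 0.564). Plxna1 showed the same order more widely, with 1.52 on EXO-Post Palm replicate 2, above all controls (-0.68 to 0.35), and -0.99 and -2.35 on replicates 1 and 3. Its log2 difference was -0.46 with an SE of 0.765. Plxna3 had values of -0.82, -0.73, -0.78 and -0.95 against -1.20, -1.04 and -2.17, which did not overlap, and a log2 difference of -0.65 (SE 0.289, adjusted p = 0.506).

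Plxna4, the remaining A-class plexin, was well above background on 3 EXO-Post BSA arrays and 1 EXO-Post Palm array. Its log2 values were -3.97, -4.05, -3.78 and -4.24 against -4.73, -5.43 and -4.12, overlapping at EXO-Post Palm replicate 3. The log2 difference was -0.75 (SE 0.310, adjusted p = 0.470), and it was -0.72 within slide 1 and 0.12 within slide 3.

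B-class plexins as a group have class 4 semaphorins among their ligands, and Plxnd1 encodes the receptor of Sema3e, known from vessels. Plxnb3 had log2 values of -2.17, -2.64, -2.83 and -2.65 with EXO-Post BSA and -3.43, -2.86 and -3.82 with EXO-Post Palm. The groups were apart, narrowly so for EXO-Post Palm replicate 2, and the log2 difference was -0.80 (SE 0.280, adjusted p = 0.383). Plxnb1 was the only plexin with a positive log2 difference, 0.41 (SE 0.253, adjusted p = 0.630), from values of -3.08, -2.74, -3.28 and -2.58 against -2.58, -2.77 and -2.18 that overlapped. Plxnb2 had a log2 difference of -0.20 (SE 0.224).

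Plxnd1 had log2 values of 3.05, 2.54, 2.59 and 2.81 with EXO-Post BSA and 2.27, 2.23 and 2.06 with EXO-Post Palm. The groups did not overlap and the log2 difference was -0.56 (SE 0.209, adjusted p = 0.419). Its second probe gave -0.45 (SE 0.268) with overlapping groups. Plxnc1 was well above background on no array with either of its probes.

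The neuropilins, co-receptors for class 3 semaphorins and for vascular endothelial growth factor, had overlapping groups. Nrp1 had log2 values of -2.16, -1.98, -3.79 and -1.75 with EXO-Post BSA and -1.89, -2.85 and -2.10 with EXO-Post Palm, and EXO-Post BSA replicate 3 was the lowest of all. Its log2 difference was 0.14 (SE 0.489), with a 95% interval of -0.98 to 1.25. Nrp2 had values of 2.97, 3.28, 3.82 and 3.01 against 3.15, 3.00 and 3.22, and a log2 difference of -0.15 (SE 0.252), with a 95% interval of -0.72 to 0.43. Its second probe gave -0.25 (SE 0.280). The sign turned for both with slide as a block or with a single array left out, and for Nrp2 also under another scaling, so no direction is given for them.

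**Figure D4:**
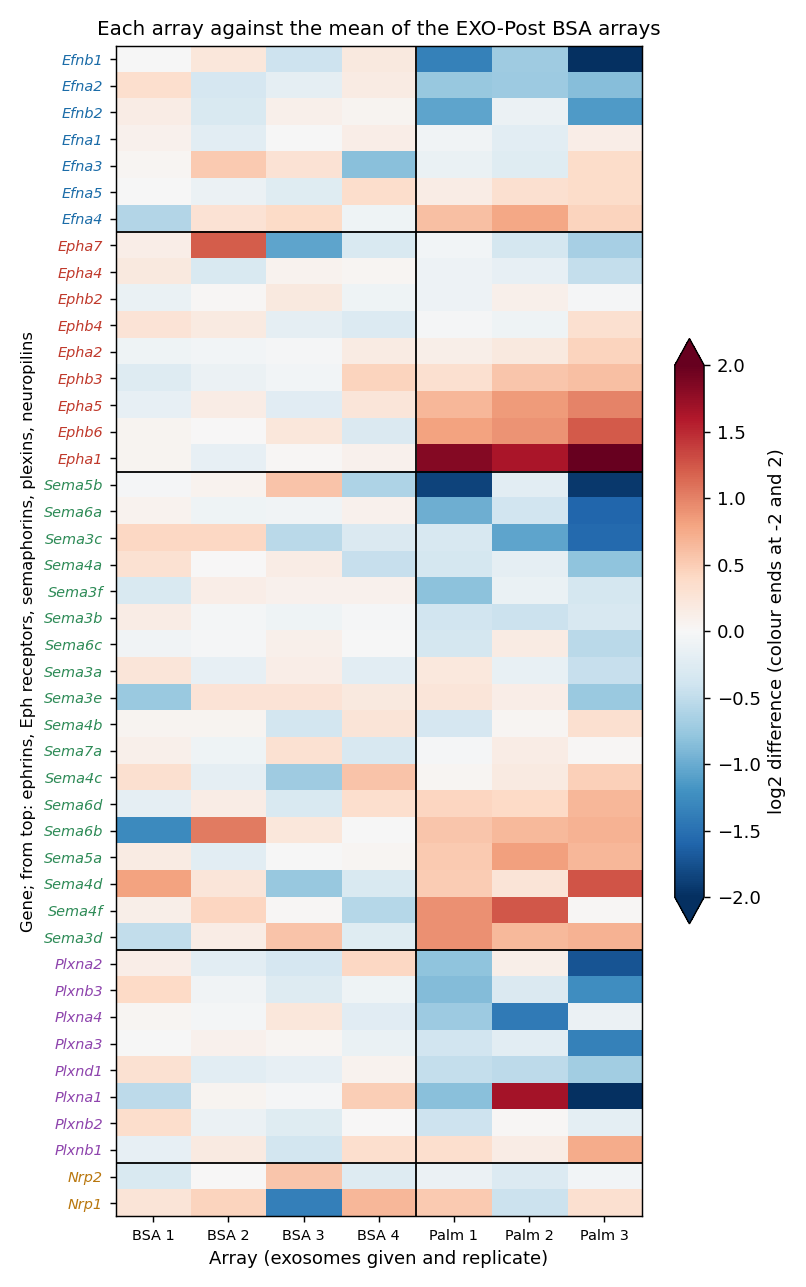
Each cell is the log2 value of a guidance gene on 1 array minus the mean of its 4 EXO-Post BSA values, for the 44 genes that passed, with red for higher and blue for lower. Epha1 is red and Efnb1 and Efna2 are blue on all 3 EXO-Post Palm arrays, while Plxna1 is red on EXO-Post Palm replicate 2 and blue on the other 2.

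The EXO-Post Palm arrays did not differ from the controls to the same extent. EXO-Post Palm replicate 2 was alone on its slide, so what belongs to this array and what to its slide cannot be told apart. Replicate 1 shared slide 1 with controls 1 and 2, and replicate 3 shared slide 3 with control 4. These controls enter the EXO-Post BSA mean, so nearness to that mean can also reflect a shared slide, which was not tested. EXO-Post Palm replicate 2 was the nearest to the EXO-Post BSA mean for 23 of 51 guidance probes (45.1%), replicate 1 for 20 and replicate 3 for 8 (15.7%), against 29.9, 41.1 and 29.0% of all tested probes with a value on every array. Of the 10 guidance probes that were lower with an unadjusted p under 0.05, replicate 2 was nearest for 7. Of the 6 that were higher, replicate 1 was nearest for 4 and replicate 2 for 2. These 16 probes had replicate 2 nearest for 9 (56.3%), replicate 1 for 6 and replicate 3 for 1, against 40.5, 43.2 and 16.3% of all probes with an unadjusted p under 0.05. Among the 16 are the probes of Sema5b and Plxna4 and the second probes of Ephb6 and Sema3c, which passed the filter through 1 group only.

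Other genes of guidance signalling were taken from a list of 96 genes outside the member rule, of which 75 passed. None passed the adjusted threshold in limma, in the values reported or under any of the 19 alternatives. An unadjusted p under 0.05 was given by 4 of the 75, a smaller share than the 10.0% of all tested probes. All 4 were lower, a share near the 5.19% of all tested probes that were lower with such a p. Nrcam, 1 of the 4, passed the filter only through the EXO-Post BSA arrays, where it was high. The median log2 difference was -0.07, with 46 genes lower and 29 higher. Pdzrn3, which encodes a ubiquitin ligase with PDZ domains known from myoblast differentiation and the neuromuscular junction, had log2 values of 1.93, 1.68, 1.95 and 1.66 against 0.67, 0.86 and 1.05. Its groups did not overlap and its log2 difference was -0.94 (SE 0.202, adjusted p = 0.122). The other 3 were Nrcam, an adhesion molecule that joins neuropilin complexes (-0.69, SE 0.229, well above background on 3 arrays of EXO-Post BSA and 1 of EXO-Post Palm), Ntn1, which encodes the guidance cue netrin-1 (-0.74, SE 0.314), and Rac1, a small GTPase of the actin cytoskeleton (-0.47, SE 0.204).

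Of 23 netrin, Slit, Robo and RGM cues and receptors, 14 passed, with a median log2 difference of -0.09 and a range from -1.04 for the probe named Dcc, after the netrin receptor, to 0.58 for Ntn5. The array annotation places the Dcc probe on chromosome 7 and the RefSeq table places the gene on chromosome 18, so this value may not be that of Dcc. The probes of all 53 guidance genes lay on the chromosome of their gene. Of 19 co-receptors and shared ligands, 11 passed, with a median of -0.02 and a range from -0.69 for Nrcam to 0.48 for Pgf, which encodes placental growth factor. Of 54 intracellular effectors, 50 passed, with a median of -0.07 and a range from -0.97 for Rasa1, a Ras GTPase-activating protein, to 0.49 for Fes, a tyrosine kinase that acts below plexins.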

How the data were processed

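RNA of C2C12 cells was measured on 7 1-colour Agilent mouse arrays. The authors deposited scanner output, in which each spot's intensity had its background subtracted but was not scaled to other arrays, and a table of processed log2 values. Per the labels the scanner software was Agilent Feature Extraction 9.1, while the file headers name later versions. The header of EXO-Post BSA replicate 3 names another extraction protocol than those of the other arrays. That array had 371 flagged non-control spots, against 136 to 267 on the others. Control spots and flagged spots were left out, repeated spots were averaged, and the processed signals, on the log2 scale relative to the array's 75th percentile over 43020 non-control spots, were fitted with limma 3.58.1 in R 4.3.3 (lmFit, eBayes, no covariate, data.table version 1.17.8). Probes well above background on at least 3 arrays of 1 group were tested. Tests were 2-sided, with Benjamini-Hochberg adjustment across all probes tested and a threshold of 0.05. Gene names are those of the array, and all 53 are current symbols among the RefSeq genes given. The model was tested on simulated data.

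Efnb1 and Epha1 were to be named because the study lists them. Values on every array are given for members past the threshold, for those with an unadjusted p under 0.05, for Efnb1 and Epha1, for both neuropilins, and for the largest rise and fall of each family, and other members by their differences. Arrays are also listed for some others, chosen after their values were seen. Of the 96 other genes, those past the threshold and the largest rise and fall of each part were to be named, and those with an unadjusted p under 0.05 were added after their values were seen. The members and lists were chosen with earlier results of these data known. The 20 alternatives covered background correction, normalisation, the authors' values, the filter, slide, replicate number, array weights, the variance model, the test, each array left out and, for the family medians, the mean of a gene's probes.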

Additional observations from a re-analysis of the deposited data

How the results depend on the processing

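The rise of Epha1 kept its direction under all 19 alternatives and its call under 14. The number of guidance probes called in limma was 0 with no filter on dim probes (Epha1 1.85, adjusted p = 0.0881) and with the replicate block (1.87, adjusted p = 0.110). It was also 0 under a plain t-test (1.85, adjusted p = 0.149). With each array left out it was 0 to 1, with an Epha1 difference of 1.74 to 1.96. The 0 came when EXO-Post Palm replicate 1 or 3 was left out. Over all probes 115 were called, against 0 with no filter, the replicate block or the t-test (1900, 1933 and 2108 with an unadjusted p under 0.05), 7 and 4 without EXO-Post Palm replicates 1 and 3, 228 without EXO-Post Palm replicate 2, 61 to 69 without an EXO-Post BSA array, 181 with slide as a random block, 180 with array weights and 173 with a trended and robust fit. The cause was not tested.

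The ephrin median of -0.05 was -0.29 with the replicate block and -0.29 to 0.031 with each array left out. The difference of Epha7 was -0.71 to 0.048 with each array left out. That of Nrp1 was -0.049 with slide as a fixed block and -0.32 to 0.42 with each array left out. That of Nrp2 was 0.14 after normexp on the median signal, 0.12 with the authors' values, 0.10 with slide as a fixed block and -0.25 to 0.037 with each array left out. Each of the other 16 named genes besides Epha1 kept its direction and stayed short of the threshold wherever it could be fitted.

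Same-numbered arrays had correlations of their deviations from the group means of 0.12, -0.15 and -0.15, the first pair also sharing slide 1. The other pairs of a control and an EXO-Post Palm array on 1 slide had 0.31 and 0.18. So few values cannot decide whether replicate numbers pair the arrays. Normexp on the mean signal was not run, because the file of EXO-Post BSA replicate 3 holds no mean signal, and the median signal was chosen after seeing the data. Dim probes limit Sema5b, Plxna4, Sema6b and the second probes of Sema6d, Sema3c and Ephb6, which passed through 1 group alone.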
